A study of Homo sapiens with 24 samples.

Results

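TAL1, the E proteins TCF3, TCF4 and TCF12, the LIM-domain proteins LMO2 and LMO4, the adaptor LDB1, and the zinc-finger factors GATA2 and GATA3 were chosen by name as the TAL1 complex and GATA factors. They are 9 of the 29794 genes in the deposited exon count tables. Each had 1 row, and all 9 passed the filter on low counts in both batches of libraries. The measurement was poly(A)+ RNA-seq of Flp-In T-REx 293 cells, a line derived from human embryonic kidney that carries the Tet repressor. Batch 1 held 2 libraries each of empty vector, miR-1 and miR-122 cells. Batch 2 held 3 libraries each of empty vector cells and of cells with miR-133a or miR-155 or with 1 of the relatives miR-302a, miR-372 and miR-373. In every miRNA group a hairpin sat in the intron of a doxycycline-inducible GFP cassette driven by the cytomegalovirus promoter and integrated by lentivirus. The empty vector cells carried the same cassette without a hairpin. All 24 libraries, controls included, came from cells given 1 µg/mL doxycycline for 7 days, after a selection of 6 days in geneticin at 1 mg/mL, with 1000 ng of RNA for each. The study describes its biological replicates as transduced and maintained separately. The comparisons therefore concern a promoter-driven miRNA in a kidney-derived line, and the mature miRNA itself is not seen in these counts.

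TAL1 is a basic helix-loop-helix (bHLH) transcription factor best known for its role in making blood stem cells, red cells and vessels, and for its misuse in T-cell leukaemia. It binds DNA as a dimer with an E protein, and the LIM-domain protein LMO2 with the adaptor LDB1 joins that dimer to a GATA factor on a neighbouring site. LMO4 is a relative of LMO2 that also binds LDB1 and is found in many tissues outside blood. A miRNA guides Argonaute to messages whose 3'UTR pairs with bases 2 to 8 of the miRNA, the seed, and such messages are usually destabilised. TAL1 is named by the study as a direct target of miR-1. That rests on RNA-seq of these same samples, on PRO-seq, which measures transcription, and on a predicted site. The study also reports lower transcriptional activity at putative TAL1 binding sites with miR-1. The behaviour of TAL1 with miR-1 here is therefore not independent evidence of that relation. PRO-seq was not used here, and exon counts alone do not separate a change in transcription from one in decay.

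The mature sequences of the 7 miRNAs, from RefSeq, are shown because the seed in capitals defines every site discussed here. The seeds of miR-1 and miR-122 differ by the substitution A5G, counted from 1 at the 5′ end. The seeds of the last 3 miRNAs listed are identical and are called the shared seed.
hsa-miR-1-3p: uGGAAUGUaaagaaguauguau
hsa-miR-122-5p: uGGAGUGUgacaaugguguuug
hsa-miR-133a-3p: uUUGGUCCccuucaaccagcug
hsa-miR-155-5p: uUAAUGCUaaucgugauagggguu
hsa-miR-302a-3p: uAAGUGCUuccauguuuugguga
hsa-miR-372-3p: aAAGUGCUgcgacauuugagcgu
hsa-miR-373-3p: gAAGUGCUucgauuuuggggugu

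The longest annotated 3'UTR of each gene was searched on the transcript strand for the full 8mer. The 8mers were ACATTCCA (miR-1), ACACTCCA (miR-122), GGACCAAA (miR-133a), AGCATTAA (miR-155) and AGCACTTA (shared seed). Their first 7 letters pair with the seed, and the last A lies opposite base 1 of the miRNA. The first 7 letters alone were counted as a 7mer-m8 and the last 7 letters alone as a 7mer-A1, and an 8mer was counted once, as an 8mer only. Of the 9 genes, 7 held at least 1 match to an expressed miRNA, and TCF3 and LMO2 held none in their 3'UTRs of 2415 and 780 bases. Among all tested genes with an annotated 3'UTR, a match of any kind to miR-1 was held by 24.1% (8mers by 5.86%) and one to miR-122 by 25.7% (8mers by 3.69%). The shares were 17.2% (8mers 3.4%) with miR-133a, 19.2% (8mers 5.01%) with miR-155 and 30.1% (8mers 4.31%) with the shared seed. These shares are for each seed alone, and the share of all genes with a match to any of the seeds was not taken. The 7 of 9 therefore cannot be set against them. Long 3'UTRs hold more matches of any kind, so these shares are a description and not an expectation for a gene of a given length.

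The matches on which the results turn are printed 5′ to 3′ on the transcript strand, from GRCh37. The match is in capitals, and 30 bases are shown in all. TAL1 (chromosome 1, minus strand) held an 8mer of miR-1 at chr1:47682519-47682526, which is 2866 bases after the stop codon of a 3'UTR of 3430 bases. It also held a 7mer-m8 of the shared seed at chr1:47682180-47682186. TCF4 (chromosome 18, minus strand) held a pair of 8mers and a pair of 7mer-m8 matches of miR-155 in a 3'UTR of 5850 bases, and a 7mer-m8 of miR-122. TCF12 held an 8mer of miR-155, LMO4 an 8mer of the shared seed and GATA2 an 8mer of miR-133a. All of these lie in annotated 3'UTRs. Which 3'UTR isoforms these cells use was not tested, so a match may be absent from part of the messages.
TAL1, miR-1 8mer: aaaaactggcaACATTCCAagaatagcatc
TAL1, shared seed 7mer-m8: tgggcgggcccAGCACTTtccgtcaacgtt
TCF4, miR-155 7mer-m8 at chr18:52894282-52894288: atattacaagcAGCATTAccaagacatggc
TCF4, miR-155 7mer-m8 at chr18:52893841-52893847: aatcatcatgcAGCATTAtaacaagcctta
TCF4, miR-155 8mer at chr18:52893811-52893818: ataagtcctaaAGCATTAAgttgcactttt
TCF4, miR-155 8mer at chr18:52890972-52890979: cacatagctgcAGCATTAAaaacttaaaaa
TCF4, miR-122 7mer-m8 at chr18:52892680-52892686: gggaactggaaACACTCCctgcattgatgt
TCF12, miR-155 8mer at chr15:57579650-57579657: tgagccagattAGCATTAAaccagtacttg
LMO4, shared seed 8mer at chr1:87812649-87812656: tttttggcataAGCACTTAtgtccctgata
GATA2, miR-133a 8mer at chr3:128199812-128199819: ccgggatgggtGGACCAAAcccttagcagc

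**Figure D1:**
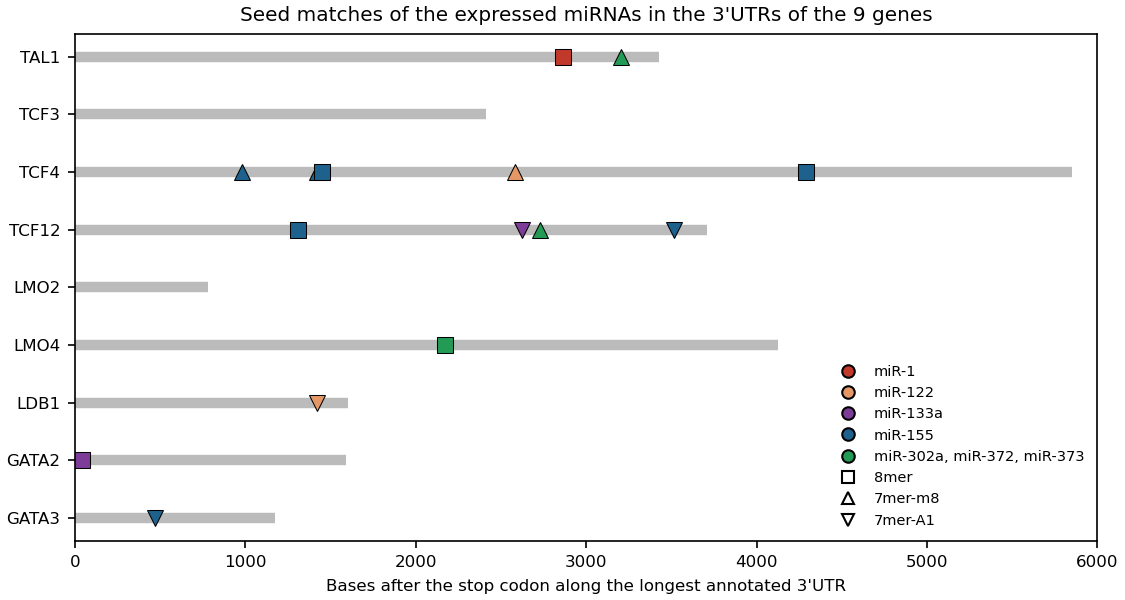
Positions of seed matches along the longest annotated 3'UTR of each of the 9 genes, in bases after the stop codon. Grey bars are the 3'UTRs, colours give the miRNA or the shared seed and symbols give the kind of match. TCF4 holds 4 miR-155 matches, of which 2 lie so close together that their symbols overlap, and TAL1 holds its miR-1 8mer near the far end at base 2866.

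Library totals were 20153452 to 21595191 counts in batch 1 and 13047400 to 35040778 in batch 2. Levels are given as CPM (counts scaled to library size) on TMM-scaled library sizes, with the SD over replicates. Fold changes are on the log2 scale, miRNA over the empty vector of the same batch, from edgeR's two-sided quasi-likelihood test with Benjamini-Hochberg adjustment over all genes tested, and a gene was called at an adjusted p under 0.05. A bracketed interval is the estimate with 2 standard errors (SE) on each side. Of the HEK293 markers, 6 of 7 had values, all at or above 1 CPM in every group, with a summed level of 1319 to 1721 CPM over the groups. With miR-1, 2 of these markers were higher and 1 lower, with miR-122 1 was lower, and with each miRNA of batch 2 1 or 2 were higher. Of all genes, 24.5% were called with miR-1, 5.92% with miR-122 and 5.13% to 11.4% with the miRNAs of batch 2. With 6 markers, their calls are a description. The part of these marker changes in the members' results was not tested. Of 8 blood-cell markers, only ITGA2B and HBA1 reached 1 CPM in any group, HBG1 had no count in any library, and the summed level of the 8 was 4.02 to 6.48 CPM.

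In the empty vector cells the 9 genes spanned more than an order of magnitude per length. TCF3, the E protein that encodes E12 and E47, stood at 35.3 ± 0.317 CPM per kb of exon in batch 1 (SD, n = 2), followed by LDB1 at 30.5 ± 0.935. LMO4 at 15.1 ± 0.233, TCF12 at 11.5 ± 0.0814, GATA3 at 7.55 ± 0.0986, TCF4 at 5.82 ± 0.0378 and GATA2 at 3.09 ± 0.112 CPM per kb came next. LMO2 at 1.19 ± 0.103 and TAL1 at 0.981 ± 0.011 CPM per kb were the lowest. The order was the same in batch 2 (n = 3), where LMO2 at 1.22 ± 0.404 and TAL1 at 1.02 ± 0.204 CPM per kb overlapped between libraries, while no other pair of neighbours in the order did. TAL1 and LMO2, the members most tied to blood, were the scarcest, and TCF3 and LDB1, which many tissues use, the most abundant.

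**Figure D2:**
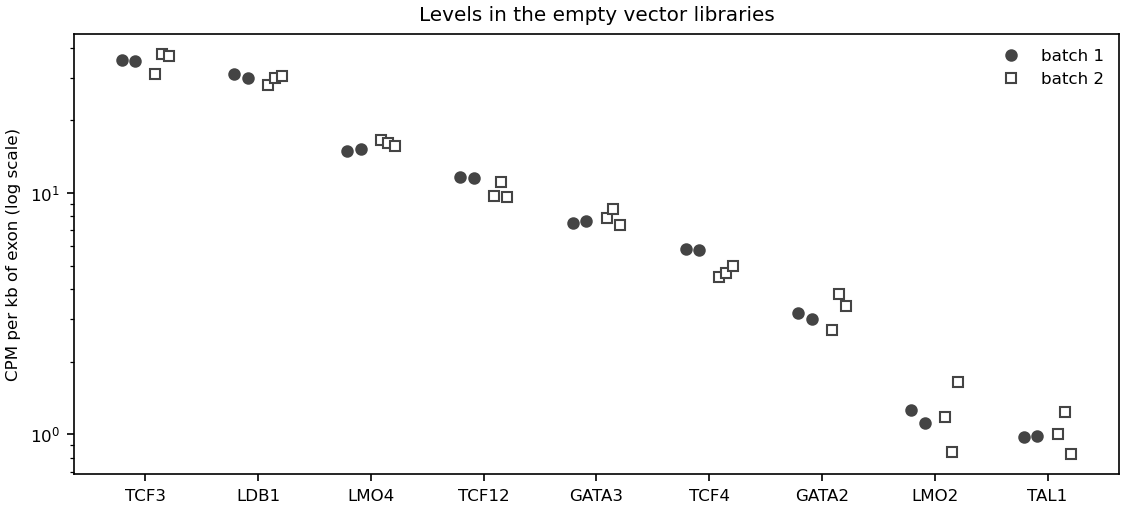
CPM per kb of exon, on a log axis, of the 9 genes in each empty vector library, with filled circles for the 2 libraries of batch 1 and open squares for the 3 of batch 2. TCF3 and LDB1 lie near 30 and LMO2 and TAL1 near 1.

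With miR-1, TAL1 fell 2.86-fold and GATA2, the GATA partner used in blood stem cells, rose slightly. TAL1 stood at 4.93 and 5.01 CPM in the empty vector libraries (102 and 106 counts) and at 1.63 and 1.83 CPM in the miR-1 libraries (35 and 38 counts). Both miR-1 libraries lay far below both controls, although the counts behind them are few. The means were 4.97 ± 0.0555 and 1.73 ± 0.141 CPM (SD, n = 2 each), and the log2 fold change was -1.52 (SE 0.184, interval -1.89 to -1.15, edgeR adjusted p = 6.86e-06). In bulk RNA, fewer cells with the message and less message per cell cannot be told apart. The call held in each of the 11 alternatives, with log2 fold changes of -1.59 to -1.43. The TAL1 3'UTR holds the miR-1 8mer shown above. Of the 773 tested genes with a miR-1 8mer in the 3'UTR, 36.2% were called lower with miR-1, against 10.6% of the 10007 genes with no match of any kind.

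GATA2 stood at 13.7 and 13.04 CPM in the controls and at 15.6 and 16.5 CPM with miR-1, so all miR-1 libraries were higher. Its log2 fold change was 0.27 (SE 0.0898, edgeR adjusted p = 0.0371), a 1.2-fold rise. The call rests on a narrow margin: the adjusted p was 0.204 with the DESeq2 Wald test, 0.1253 without empty vector replicate 2, and 0.0826 and 0.193 without miR-1 replicate 1 and miR-1 replicate 2. GATA2 holds no 3'UTR match to miR-1. The 2 called genes of 9 compare with 24.5% of all genes called in this comparison, so their number is near the background. The other 7 genes did not pass, with log2 fold changes from -0.30 for LMO2 to 0.10 for LDB1. Of these, TCF3 and LDB1 hold 1 match each to miR-1 in the coding sequence. LMO2, the bridge between TAL1 and LDB1, was measured too thinly to tell, with 41 and 57 counts against 63 and 57 and an interval of -0.81 to 0.21. GATA3, which directs T-cell and kidney duct development, was bounded more tightly at 0.02 (interval -0.12 to 0.16).

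**Figure D3:**
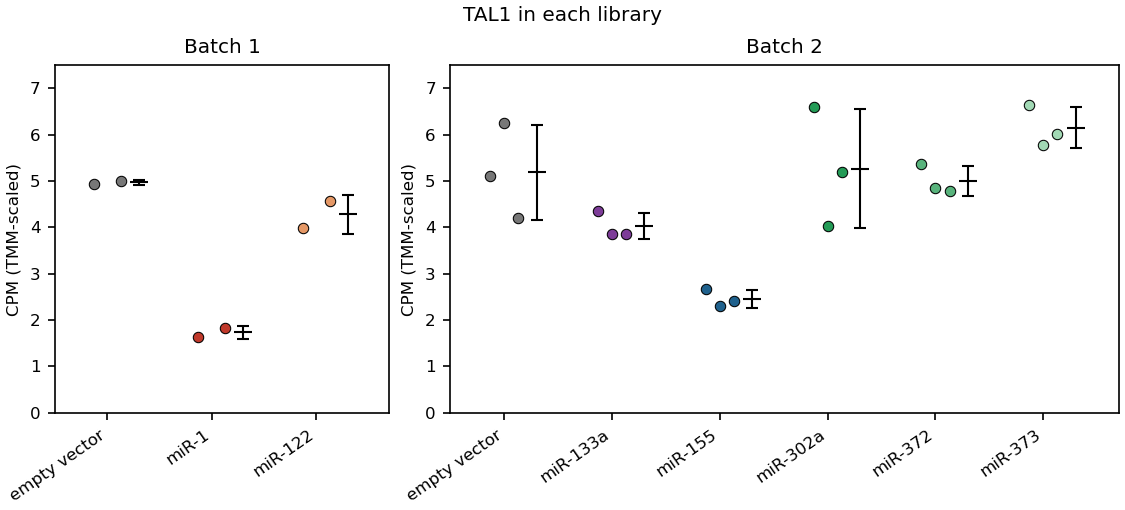
TAL1 in CPM on TMM-scaled library sizes in each of the 24 libraries, by group, for batch 1 on the left and batch 2 on the right. Points are libraries, and the bar beside them is the mean with the SD. The miR-1 libraries lie at 1.63 and 1.83 CPM and the miR-155 libraries at 2.29 to 2.67 CPM, below every empty vector library of their batch.

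With miR-122, whose seed differs from that of miR-1 at the base given above, only TCF4, an E protein abundant in brain and in dendritic cells, was called. TAL1 stood at 3.99 and 4.58 CPM (81 and 96 counts), both below the controls of 4.93 and 5.01 CPM. The difference of -0.21 on the log2 scale did not pass (SE 0.152, interval -0.52 to 0.09, adjusted p = 0.485). Compared directly with miR-122, the miR-1 cells had less TAL1, by -1.30 on the log2 scale (SE 0.19, edgeR adjusted p = 3.49e-05), and this call too held in every one of its 11 alternatives. GATA2 was higher with miR-1 than with miR-122 by 0.33 (SE 0.0907, edgeR adjusted p = 0.01), from 12.5 and 13.2 CPM to 15.6 and 16.5 CPM. That call was lost with the DESeq2 Wald test (adjusted p = 0.0858) and without miR-1 replicate 2 or miR-122 replicate 1. The 2 of 9 called between the miRNAs compare with 31.2% of all genes, and the 3 comparisons within batch 1 share libraries.

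TCF4 stood at 78.4 and 77.6 CPM in the batch 1 controls and at 67.1 and 71.5 CPM with miR-122, the 2 lower values. The log2 fold change was -0.17 (SE 0.0498, edgeR adjusted p = 0.0487), a 1.12-fold drop. It was the only member called, against 5.92% of all genes, and it passed in 3 of 11 alternatives only, with adjusted p from 0.0279 to 0.429. Its match is a 7mer-m8, a kind for which no share was taken alone. Of the 3393 tested genes with any miR-122 match, 8mers included, 10.2% were called lower. Of the 487 with an 8mer, 25.3% were. LDB1, the other member with a miR-122 match in its 3'UTR, was at 84.1 and 79.4 CPM against 82.8 and 79.2 CPM. Its groups overlapped, and its difference was 0.01 (interval -0.09 to 0.11). In the coding sequence, TCF12 holds 3 matches to miR-122, and TCF4 and GATA3 hold 1 each. LDB1 holds 1 more in its 5'UTR. TCF12 stood at 79.5 and 78.7 CPM in the controls and at 72.3 and 72.4 CPM with miR-122, the 2 lower values, and its difference of -0.13 did not pass (SE 0.0477, edgeR adjusted p = 0.1253). GATA3 differed by 0.02 (interval -0.12 to 0.16).

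With miR-155, TAL1 and TCF4 were both called lower and no member was called higher. The 2 of 9 compare with 7.63% of all genes called in either direction and 4.81% called lower. TAL1 stood at 5.10, 6.26 and 4.20 CPM in the batch 2 controls (68, 95 and 60 counts) and at 2.67, 2.29 and 2.41 CPM with miR-155 (41, 30 and 34 counts). The groups did not overlap, and the miR-155 libraries were closer to each other than the controls were. The means were 5.19 ± 1.03 and 2.46 ± 0.195 CPM (SD, n = 3 each), and the log2 fold change was -1.07 (SE 0.197, interval -1.47 to -0.68, edgeR adjusted p = 0.00181), a 2.1-fold drop. The call held in each of 13 alternatives, with adjusted p no higher than 0.0184. Unlike the miR-1 case, no 8mer, 7mer-m8 or 7mer-A1 of miR-155 was found in any part of the searched TAL1 transcript, neither the 3'UTR nor the coding sequence nor the 5'UTR. Among all tested genes without a miR-155 match in the 3'UTR, 2.06% were called lower with miR-155.

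TCF4 was the member with the most matches and the clearest change in batch 2. It stood at 60.2, 62.3 and 66.6 CPM in the controls and at 34.4, 34.9 and 36.3 CPM with miR-155. The 3 miR-155 libraries were almost alike and far below each control. The means were 63.0 ± 3.30 and 35.2 ± 0.988 CPM (SD, n = 3 each), and the log2 fold change was -0.84 (SE 0.0881, interval -1.02 to -0.66, edgeR adjusted p = 5.08e-06), a 1.79-fold drop that was called in all 13 alternatives. Its 4 miR-155 matches place it among 48 tested genes with 4 or more, of which 18 (37.5%) were called lower. Of the 654 tested genes with a miR-155 8mer, 29.4% were called lower.

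The other 2 members with miR-155 matches did not pass. TCF12, the E protein also called HEB, stood at 66.5, 76.1 and 66.0 CPM in the controls and at 58.5, 58.7 and 59.7 CPM with miR-155. All 3 miR-155 libraries were below all controls. The difference of -0.24 on the log2 scale (SE 0.0766, edgeR adjusted p = 0.062) passed under the DESeq2 Wald test (0.0407) and edgeR's likelihood ratio test only, of 13 alternatives. GATA3 holds a 7mer-A1 and stood at 24.2, 26.4 and 22.7 CPM in the controls and at 19.8, 23.5 and 18.1 CPM with miR-155. Its groups overlapped through the middle miR-155 library, and the log2 fold change was -0.26 (SE 0.0946, adjusted p = 0.104). Without that library, miR-155 replicate 2, the value was -0.37 and the adjusted p was 0.0378.

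TCF3, the remaining E protein, holds no miR-155 match in its 3'UTR and changed by -0.15 (interval -0.31 to 0.02) without a call. LMO2, also without a match, was at 25 to 28 counts with miR-155 against 31 to 57 in the controls, with a log2 fold change of -0.66 and an interval of -1.26 to -0.06 (edgeR adjusted p = 0.184). Its 3 miR-155 libraries lay below the controls, yet at these counts the size of the difference is poorly fixed. LDB1, LMO4 and GATA2 lay between -0.16 and 0.09. The 9 genes had a median of -0.24 on the log2 scale with miR-155. The median of all 14054 genes tested was 0.0057, with quartiles of -0.168 and 0.151. The 9 genes were chosen with earlier results of these data known, so their median is a description.

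The empty vector libraries varied widely for TAL1, so each miRNA of batch 2 was also set against the mean of the other 4, contrasts chosen after the values were seen. With miR-155, TAL1 was lower by -1.03 there (SE 0.164, edgeR adjusted p = 0.000131) and TCF4 by -0.66 (edgeR adjusted p = 2.13e-06). GATA2 at -0.43 (edgeR adjusted p = 0.00561) and GATA3 at -0.28 (edgeR adjusted p = 0.0102) were called lower as well. Against the empty vector neither was called, at -0.16 and -0.26 (edgeR adjusted p = 0.485 and 0.104). For GATA2 the group means were 113% to 128% of the control mean with the other miRNAs and 89.9% with miR-155. The 4 of 9 called in this contrast compare with 25% of all genes. It uses the same miR-155 libraries as the comparison with the empty vector. With miR-133a, TCF4 was the only member called, at 0.37 (edgeR adjusted p = 0.000583), beside 17.8% of all genes. With miR-373, TAL1 was the only member called, at 0.61 (edgeR adjusted p = 0.027), beside 1.27% of all genes. The mean in these last contrasts includes the miR-155 libraries. With miR-302a and with miR-372, edgeR called 0 of 9, beside 1.48% and 2.92% of all genes, and 1 member in each had an unadjusted p under 0.05.

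**Figure D4:**
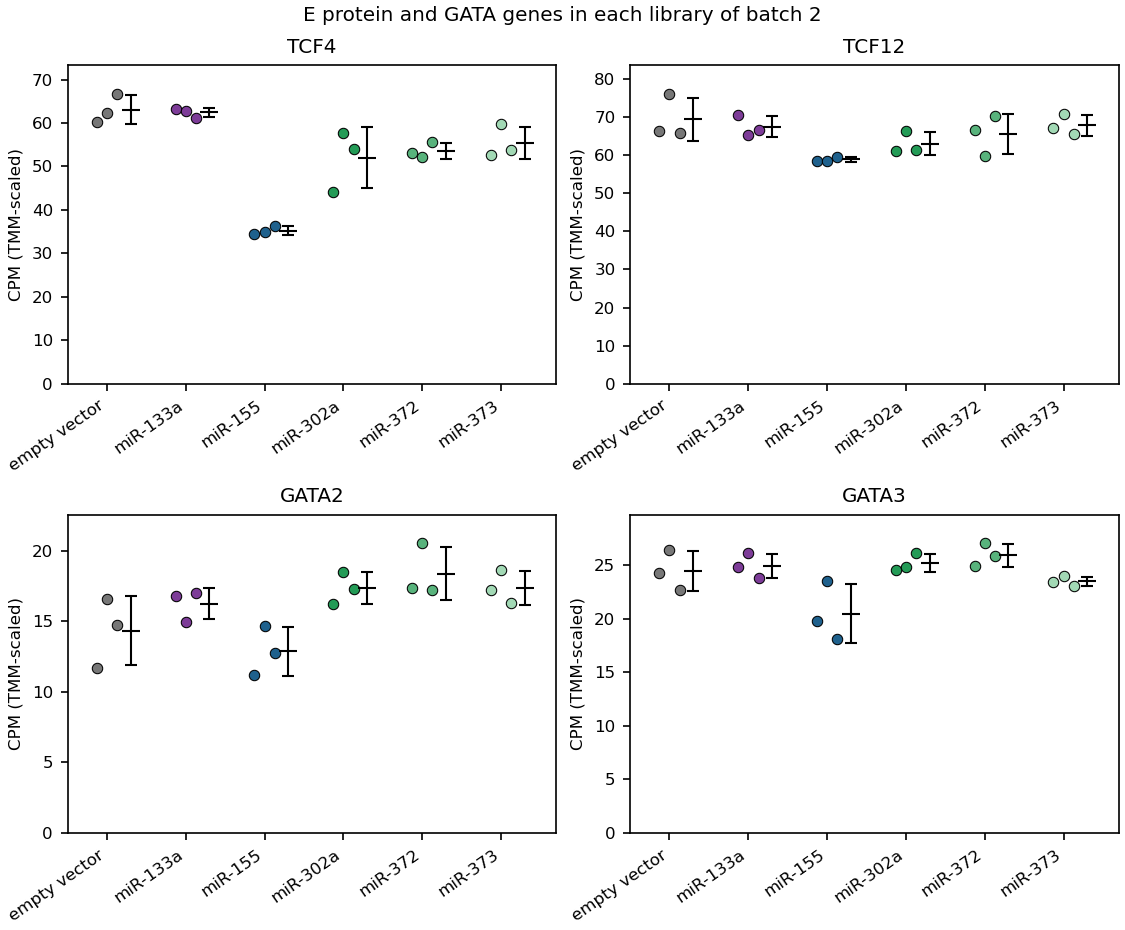
TCF4, TCF12, GATA2 and GATA3 in CPM on TMM-scaled library sizes in each library of batch 2, by group. Points are libraries, and the bar beside them is the mean with the SD (n = 3). TCF4 lies at 34.4 to 36.3 CPM with miR-155 and at 60.2 to 66.6 CPM with the empty vector.

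With miR-133a, no member was called, whereas 5.34% of all genes were. None of the 9 had an unadjusted p under 0.05, and the DESeq2 Wald test and the likelihood ratio test called 0 of 9 as well. GATA2 holds an 8mer of miR-133a only 43 bases after its stop codon, and stood at 16.8, 14.96 and 17.02 CPM against 11.7, 16.5 and 14.8 CPM in the controls. The groups overlapped, and the log2 fold change was 0.18 (interval -0.08 to 0.44). Of the 443 tested genes with a miR-133a 8mer, 27.5% were called lower. TCF12, with a 7mer-A1, stood at 70.6, 65.5 and 66.7 CPM against 66.5, 76.1 and 66.0 CPM. Its groups overlapped too, with a difference of -0.04 (interval -0.19 to 0.11). In the coding sequence, TCF3, TCF4 and LDB1 hold 1 match each to miR-133a. Their log2 fold changes were 0.06, -0.01 and -0.10. TAL1 was at 3.87 to 4.35 CPM with miR-133a, with a log2 fold change of -0.37 that did not pass (interval -0.74 to 0.0022, adjusted p = 0.273).

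No member was called with any of the 3 miRNAs of the shared seed, whose comparisons use the same control libraries. Of all genes, 7.88% were called with miR-302a, 11.4% with miR-372 and 5.13% with miR-373. In each comparison TCF4 and GATA2 had an unadjusted p under 0.05. The DESeq2 Wald test and the likelihood ratio test each called TCF4 with miR-302a and called 0 of 9 with miR-372 and miR-373. LMO4, which holds the shared-seed 8mer, stood at 92.3, 89.1 and 86.6 CPM in the controls and at 85.0, 88.8 and 89.0 CPM with miR-302a. It stood at 84.3, 96.8 and 80.2 CPM with miR-372 and at 83.6, 86.4 and 79.1 CPM with miR-373. The levels overlapped the controls with miR-302a and miR-372, and with miR-373 lay just below them. The log2 fold changes were -0.03 (interval -0.19 to 0.13), -0.04 (interval -0.20 to 0.12) and -0.11 (interval -0.26 to 0.05). Among the 562 tested genes with this 8mer, 23.7%, 29.5% and 18.9% were called lower, so LMO4 is one of the many genes with the match for which no drop was called.

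TAL1 holds a 7mer-m8 of the shared seed, and its level did not pass in any of the 3 comparisons. It stood at 6.60, 4.03 and 5.19 CPM with miR-302a, at 5.38, 4.85 and 4.79 CPM with miR-372, and at 6.64, 5.78 and 6.02 CPM with miR-373. All 3 groups overlapped the controls at 4.20 to 6.26 CPM. The log2 fold changes were 0.01 (interval -0.35 to 0.37), -0.06 (interval -0.41 to 0.30) and 0.24 (interval -0.11 to 0.58), so the values of -1.52 with miR-1 and -1.07 with miR-155 lie outside these intervals. TCF12, with a 7mer-m8, stood at 61.2, 66.5 and 61.6 CPM with miR-302a, at 66.8, 59.9 and 70.3 CPM with miR-372, and at 67.1, 71.0 and 65.7 CPM with miR-373. Its groups overlapped the controls, and its log2 fold changes lay between -0.14 and -0.03.

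Outside the 3'UTR, TCF12 holds 1 match to the shared seed in its coding sequence and LMO4 holds 1 in its 5'UTR. TCF4 holds no 3'UTR match to the shared seed but a pair of matches in its coding sequence. It stood at 44.1, 57.7 and 54.1 CPM with miR-302a, at 53.0, 52.1 and 55.7 CPM with miR-372, and at 52.6, 59.7 and 53.9 CPM with miR-373, each below the lowest control of 60.2 CPM. The log2 fold changes were -0.28 (adjusted p = 0.0544), -0.23 (adjusted p = 0.0874) and -0.19 (adjusted p = 0.255) in edgeR. GATA2 was measured at 16.2 to 18.5, 17.2 to 20.5 and 16.3 to 18.7 CPM, with log2 fold changes of 0.27, 0.35 and 0.27 that did not pass (adjusted p = 0.209, 0.0862 and 0.271). TCF3, LDB1 and GATA3 stayed between -0.09 and 0.08, and LMO2 between -0.22 and -0.03 with wide intervals. When these 3 miRNAs were compared with each other, none of the 9 genes was called and 0% of all genes were. None of the 9 had an unadjusted p under 0.05, and DESeq2 and the likelihood ratio test called none of them. The differences between these miRNAs ran from -0.29 to 0.19, with the outermost interval bounds at -0.64 and 0.73. Among all 14054 genes, 0.868% to 1.31% had an unadjusted p under 0.05, and DESeq2 called 0 to 3.

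**Figure D5:**
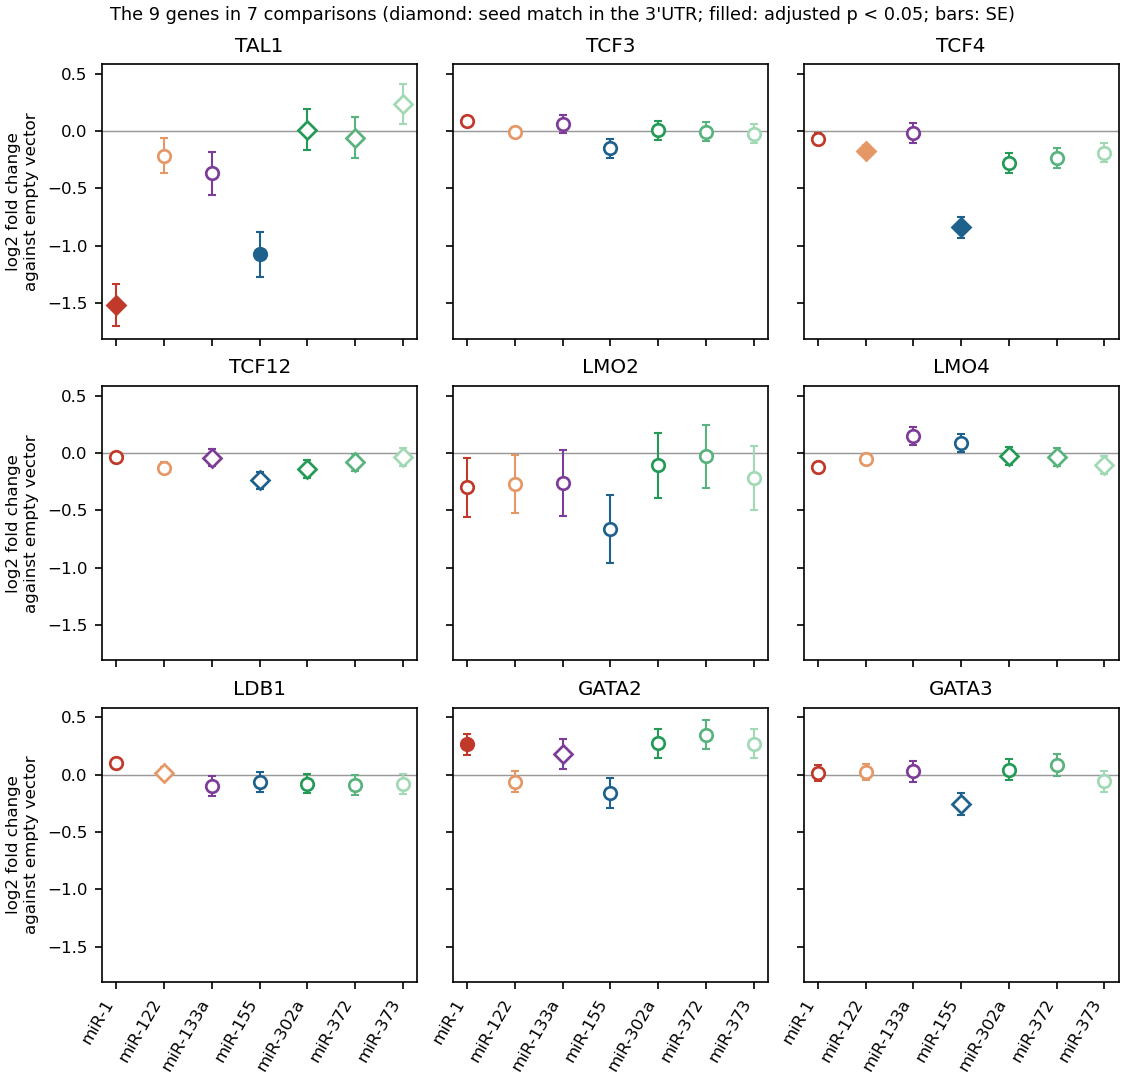
Log2 fold change against the empty vector of the same batch (y axis) for each of the 9 genes, 1 panel a gene, with the 7 miRNAs on the x axis. Bars are the SE, diamonds are genes with a 3'UTR seed match to that miRNA, circles are genes without one, and filled symbols had an adjusted p under 0.05. TAL1 with miR-1 at -1.52 and with miR-155 at -1.07, and TCF4 with miR-155 at -0.84, stand apart from the rest.

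Over the 63 pairs of a gene and a miRNA, 17 held a 3'UTR match. Of these 17, 3 were called lower and none higher, namely TAL1 with miR-1, TCF4 with miR-155 and TCF4 with miR-122. The last of these passed in 3 of 11 alternatives only. Among all tested genes with a match, the share called lower ran from 6.98% with miR-373 to 26.4% with miR-1. The 3 of 17 are not set apart from these shares. Among genes with no match it ran from 1.93% with miR-373 to 10.6% with miR-1. Of the 46 pairs without a match, TAL1 with miR-155 was called lower and GATA2 with miR-1 higher. The median log2 fold change was -0.06 both with and without a match. The pairs share genes and control libraries and are not independent.

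Partners that can replace or hold back the complex were described by lists. Of the bHLH partners and inhibitors, 5 of 8 were tested. LYL1 and TAL2, the closest relatives of TAL1, and NHLH2 were too low. With miR-1, ID4, which sequesters E proteins, fell by 0.36 on the log2 scale (SE 0.0453, edgeR adjusted p = 9.88e-06) and no member of the list rose, with a median of -0.13 against about 0 for all genes. ID4 was also lower with miR-155, at -0.32 (edgeR adjusted p = 0.0394). With miR-122, 1 of the 5 was higher and none lower. Of the LIM adaptor partners, 4 of 6 were tested, and with miR-1 SSBP3 fell by 0.27 and SSBP4 rose by 0.25 (edgeR adjusted p = 0.0427 and 0.00513). Both bind and protect LDB1. No member of that list was called with miR-122 or any miRNA of batch 2. Of the other GATA factors and their FOG cofactors, 4 of 6 were tested and none was called in any of the 7 comparisons with the empty vector. GATA1, the red cell factor, was too low to test. Of all genes, 24.5% were called with miR-1, 5.92% with miR-122 and 7.63% with miR-155. The shares with the other miRNAs of batch 2 were 5.13% to 11.4%. With 4 or 5 genes tested in a list, the calls above are a description and are not set apart from these shares.

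Of the corepressors, coactivators and RUNX partners, 18 of 20 were tested. With miR-1, 2 were lower and 5 higher, with a median of 0.07, where 24.5% of all genes were called. FLI1, an ETS factor that works beside the complex, fell by 0.40 (SE 0.118, edgeR adjusted p = 0.0189). The corepressor scaffold SIN3A rose by 0.24 and GFI1, a transcriptional repressor, fell by 0.23 (edgeR adjusted p = 0.000337 and 0.0331). With miR-155, 5 of the 18 were lower and none higher, namely MYB, CBFB, RCOR1, FLI1 and SIN3A. Of all genes, 4.81% were called lower and 7.63% in either direction. The list had a median of -0.34, beside 0.0057 for all genes (quartiles -0.168 and 0.151). It was chosen with earlier results of these data known, so these values are a description. The same list had 3 lower with miR-122 and 1 lower with miR-133a, where 5.92% and 5.34% of all genes were called in either direction. With miR-302a 1 was higher and none lower, beside 7.88% of all genes. With miR-372 and with miR-373 1 was lower and 1 higher, beside 11.4% and 5.13%.

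Of 11 genes known as controlled by the complex in blood or vessel cells, 5 were tested, since red cell genes such as EPB42, SLC4A1 and ALAS2 were too low. With miR-1, KIT, the stem cell factor receptor, fell by 0.21 (SE 0.0695, edgeR adjusted p = 0.0346) and the other 4 did not pass. Of all genes, 24.5% were called with miR-1, so 1 of 5 is near the background. With miR-122 1 was higher (5.92% of all genes were called in either direction), and with miR-133a none was called (5.34%). With miR-302a 1 was higher (7.88%). With miR-372 (11.4%) and miR-373 (5.13%) 1 was lower and 1 higher each. Of the 8 blood markers, 3 were tested with miR-1, with a median log2 fold change of -0.11, and CD34 alone was called, as lower. Its mean was 0.549 CPM in the controls (10 and 13 counts) and 0.164 CPM with miR-1 (1 and 6 counts), both near the limit of detection. CD34 passed the low-count filter only through the empty vector libraries, where it was highest, so its call is not taken as a result. The part of any such change in the TAL1 result was not tested.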

How the data were processed

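Per the labels and the study's methods, the authors aligned trimmed reads to hg19 with TopHat2 2.1.1 and counted them over exons by strand with featureCounts. They deposited raw counts per gene, not normalized, in a table per batch. Tables of the authors' own edgeR comparisons (log2 fold changes, mean log2 CPM, p-values) were deposited too and were not used.

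Groups and replicate numbers came from the labels. Gene identifiers were matched to GENCODE on GRCh37, of which hg19 is a version, and 28543 of 29794 had a symbol; 18434 had an annotated 3'UTR in a coding transcript. Coordinates are 1-based.

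Counts were tested in R 4.3.3 with edgeR 4.0.16 (filterByExpr with a minimum count of 10, TMM, a quasi-likelihood fit of all groups of a batch, prior count 0.125), which left 14348 genes in batch 1 and 14054 in batch 2. The SE was derived from the fold change and F. Alternatives were DESeq2 size factors, DESeq2 1.42.0 (Wald test), edgeR's likelihood ratio test, no filter, only genes above 1 CPM throughout, only the 2 groups compared, a replicate block, and leaving out each library. Fits and the site search were tested on simulated data.

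The 9 members and all lists were chosen with earlier results of these data known. The genes named were all members, with values per library where a member was called or held a match to the miRNA, and, per list, up to 3 genes called with miR-1 by absolute log2 fold change. Others were chosen after their values were seen. A result of 1 listed gene is not reported here. The 3 genes most like TAL1 were picked by Pearson correlation over the 24 libraries. No pair of replicates agreed within counting noise, since chi-square over its degrees of freedom was 1.83 to 35.7. GATA3 and TCF3 each overlap another annotated gene on the same strand. TAL1, TCF4, TCF12, LMO2, GATA2 and GATA3 overlap genes on the opposite strand. Low counts limit the precision of TAL1 and LMO2. Replicate numbers were taken to pair libraries where the correlation of deviations from the group means was over 0.1 for every number, which held for miR-302a with miR-372 (0.161 to 0.336) and for no other comparison.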

Additional observations from a re-analysis of the deposited data

How the results depend on the processing

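Across the alternatives, 117 of 139 counts stayed within 1.5 times of the reported count. They include the counts of members with a 3'UTR match given below. Many are counts of 0 members called that stayed at 0. Among the miRNAs of the shared seed, for example, 0 of all 14054 genes were called in the main fit. The total therefore says little about the comparisons in which a member was called. With miR-1 the count fell from 2 to 1 with the DESeq2 Wald test and with the replicate block (GATA2, adjusted p = 0.204 and 0.0541), and was 1 to 2 when a library was left out. With miR-122 it fell from 1 to 0 with DESeq2 size factors, the DESeq2 Wald test, no filter, the replicate block and only the 2 groups compared, and was 0 to 1 when a library was left out. Between miR-1 and miR-122 it was 1 with the DESeq2 Wald test and 1 to 2 when a library was left out. With miR-302a it was 1 instead of 0, through TCF4, with the DESeq2 Wald test, the likelihood ratio test, more than 1 CPM in every library and the replicate block, and 0 to 1 when a library was left out. With miR-372 the replicate block gave 1 (GATA2, adjusted p = 0.0345). Where a library was left out of batch 1, the lone library was assumed to vary like the other groups. The cause of these changes was not tested. The replicate block changed no other count of members. By a threshold of 0.1 for each number, only miR-302a with miR-372 counted as paired, and 0 members were called there with or without the block. Correlations were also above 0 for every number of miR-302a with miR-373 (0.0217 to 0.575), miR-372 with miR-373 (0.0557 to 0.505) and miR-373 with the empty vector (0.029 to 0.22). The count of members with a 3'UTR match was 7, 5 with 8mer and 7mer-m8 matches only, and 7 over every annotated 3'UTR.

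Among pairs of a member and a miRNA that were called under any setting or held a match, signs turned only for differences near 0 that were never called. Leaving out a library gave LDB1 with miR-122 from -0.028 to 0.057, TCF12 from -0.079 to 0.029 with miR-133a and -0.072 to 0.037 with miR-373, LMO4 with miR-372 from -0.12 to 0.025, and TAL1 from -0.18 to 0.18 with miR-302a and -0.18 to 0.11 with miR-372; the replicate block gave TAL1 with miR-302a -0.0012.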

Other observations

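Some results chosen after their values were seen are added here. The 5 genes of the corepressor, coactivator and RUNX list that were lower with miR-155 include MYB, a factor of blood progenitors, at 18.3 ± 0.604 CPM with the empty vector and 8.07 ± 1.16 CPM with miR-155 (SD, n = 3 each; log2 fold change -1.18, SE 0.197, edgeR adjusted p = 0.000795). CBFB, the partner of RUNX factors, was at 144.8 ± 3.13 and 79.3 ± 5.06 CPM (log2 fold change -0.87, edgeR adjusted p = 1.05e-05). RCOR1, a subunit of the KDM1A corepressor complex, was at 75.6 ± 3.25 and 46.6 ± 3.18 CPM (log2 fold change -0.70, edgeR adjusted p = 2.15e-05). ANGPT2, a vessel growth factor, was higher with miR-302a, miR-372 and miR-373 by 1.90, 1.94 and 1.88 on the log2 scale (edgeR adjusted p = 0.0021, 0.00133 and 0.00296). Its control mean was only 0.739 CPM, so it may have passed the low-count filter through the groups where it is high. FLI1 was higher with the same miRNAs by 0.64, 0.52 and 0.50. These 3 comparisons share their controls.

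Of 12200 genes ranked, those whose pattern over the 24 libraries was most like that of TAL1, in log2 CPM less the mean of the batch controls, were SFRP1 (Pearson's r 0.878, Spearman's rho 0.509), TENT5C (0.869 and 0.723) and PXDN (0.866 and 0.757). Without the 2 libraries farthest from the median of TAL1, both of miR-1, r was 0.76, 0.808 and 0.827. The libraries share batches and groups, and the genes were picked for this value. All 3 were called lower with miR-1 (log2 fold changes -1.49, -0.45 and -0.74) and with miR-155 (-0.84, -0.39 and -0.72). The choice by likeness to TAL1 favours this, so it is not a separate result. SFRP1 was also called lower with miR-122 (log2 fold change -0.29, edgeR adjusted p = 0.0057), where TAL1 was not called. The other 8 members had r from -0.22 for LDB1 to 0.38 for GATA3.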
